A study of Mus musculus with 28 samples.

Results

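The genes followed here were the subunits of the hypoxia-inducible factors (HIFs) and the proteins that regulate them by oxygen, 8 genes in all out of 55341 gene names in the count matrices. They were chosen by name: the alpha subunits Hif1a, Epas1 and Hif3a, the beta subunit Arnt, the prolyl hydroxylases Egln1 and Egln2, the ubiquitin ligase subunit Vhl and the asparaginyl hydroxylase Hif1an. Bulk RNA was sequenced from 28 whole subcutaneous tumors of AB1-HA, a murine mesothelioma cell line grown in BALB/c.AusBP mice aged 8 to 10 weeks, 1 tumor per mouse. The 6 groups were PBS (n = 4), ICB (n = 5), 5-FU (n = 5), cisplatin (n = 4), 5-FU+ICB (n = 5) and cisplatin+ICB (n = 5). ICB, immune checkpoint blockade, was 1 dose of 100 µg anti-CTLA-4 with 3 doses of 100 µg anti-PD-L1. The chemotherapies were 75 mg/kg 5-FU (5-fluorouracil) or 6 mg/kg cisplatin, and every tumor was taken 7 days after treatment began. All mice carried the same transplanted line under the skin, so the tumors did not arise in the pleura or peritoneum.

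Total counts ran from 23541733 to 33950805 per tumor, and 3 counts corresponded to 0.083 to 0.145 CPM, the unit of all levels here, a count scaled to the size of its library. Of 4 mesothelial markers Msln was abundant, with a median of 149 CPM, while Upk3b was at 0 in 23 of 28 tumors. Several libraries stood apart. Genes for cytosolic ribosomal proteins held a median of 3.92% of the counts but 14% in cisplatin+ICB tumor 1, 8.36% in PBS tumor 2 and over 6% in 6 tumors in all, the others being PBS tumor 1, cisplatin tumors 2 and 4 and 5-FU+ICB tumor 5. Mitochondrial transcripts held 16.1% of the counts in 5-FU+ICB tumor 5 against a median of 3.13%. Tumor 5 of 5-FU+ICB also nearly lacked the tumor marker, with Msln at 0.484 CPM where the other 4 tumors of its group held 35.9 to 161, and held the highest Krt19 of all, 47.3 CPM. Member results that moved when these tumors were left out are given with and without them. Leaving out the 6 kept only tumors 3 and 4 of PBS and tumors 1 and 3 of cisplatin. Smaller groups and ribosomal share therefore cannot be told apart as reasons for a call lost in those fits.

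A HIF is a pair of an alpha and a beta subunit that binds the short DNA word of the hypoxia response element. While oxygen is plentiful, EGLN enzymes hydroxylate prolines of the alpha subunit, VHL binds the hydroxylated protein and marks it for destruction, and HIF1AN hydroxylates an asparagine that blocks coactivator binding. When oxygen falls these reactions slow and the alpha protein accumulates, so much of the control lies in the protein and not in the transcript counted here. Transcript levels still differ between cell types: Epas1, which encodes HIF-2 alpha, is known for its abundance in endothelium, and Hif1a rises in activated myeloid and lymphoid cells.

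The residues that the hydroxylases modify can be read in the reference transcripts. The coding DNA around each is shown because these are the points at which Egln1, Egln2 and Hif1an act on the other members. The sequences come from the GENCODE M21 transcripts of GRCm38, 5′ to 3′, with capitals marking the codons of leucine, any 2 residues, leucine, alanine and proline, or of cysteine, glutamate, valine and asparagine, and positions counted from the start methionine.
Hif1a proline 402: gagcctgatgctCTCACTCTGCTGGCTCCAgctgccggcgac
Hif1a proline 577: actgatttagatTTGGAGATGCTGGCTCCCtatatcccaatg
Hif1a asparagine 813: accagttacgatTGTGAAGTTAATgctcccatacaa
Epas1 proline 405: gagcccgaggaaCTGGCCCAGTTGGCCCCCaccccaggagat
Epas1 proline 530: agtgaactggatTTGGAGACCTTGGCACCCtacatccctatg
Epas1 asparagine 851: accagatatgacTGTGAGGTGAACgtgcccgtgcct
Hif3a proline 489: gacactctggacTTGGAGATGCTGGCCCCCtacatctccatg
Hif1a and Epas1 each held 2 proline motifs and 1 asparagine motif, in proteins of 836 and 874 residues. The Hif3a product of 664 residues held 1 proline motif, and the asparagine motif was not found in it.

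On GRCm38 the members lie apart from each other. Hif1a spans chr12:73901375-73947530 on the plus strand with 15 exons in its longest coding transcript, and Epas1 spans chr17:86753700-86833410 on the plus strand with 16 exons. Arnt is at chr3:95434388-95497240 (plus), Vhl at chr6:113623959-113631633 (plus) and Hif1an at chr19:44562850-44576274 (plus). On the minus strand lie Hif3a at chr7:17031507-17062427, Egln2 at chr7:27158658-27166802 and Egln1 at chr8:124908587-124949324. An antisense gene, Gm15283, and a coding gene on the same strand, Gm49321, overlap exons of Hif1a. They were assigned at most 0.765 and 1.35 CPM in any tumor, against 82.9 CPM or more for Hif1a, and whether the library kept strand was not given in the sources used here.

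RefSeq promoters (GRCm38.p6, 250 bases before to 50 bases after the start) were given for 7 members, Epas1 not being among them. They were searched on both strands for the core of the hypoxia response element, ACGTG or GCGTG, because these genes regulate the factors that bind it. 3 of them are printed for the contrast between them, 5′ to 3′ on the strand of the gene, with capitals marking each core, written as CACGT or CACGC where it lies on the other strand.
Hif1a promoter: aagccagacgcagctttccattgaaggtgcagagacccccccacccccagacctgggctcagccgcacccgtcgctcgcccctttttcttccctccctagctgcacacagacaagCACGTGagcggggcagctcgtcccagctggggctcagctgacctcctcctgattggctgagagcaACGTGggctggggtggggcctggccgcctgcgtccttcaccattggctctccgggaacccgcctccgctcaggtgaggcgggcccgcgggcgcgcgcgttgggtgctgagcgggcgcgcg
Egln1 promoter: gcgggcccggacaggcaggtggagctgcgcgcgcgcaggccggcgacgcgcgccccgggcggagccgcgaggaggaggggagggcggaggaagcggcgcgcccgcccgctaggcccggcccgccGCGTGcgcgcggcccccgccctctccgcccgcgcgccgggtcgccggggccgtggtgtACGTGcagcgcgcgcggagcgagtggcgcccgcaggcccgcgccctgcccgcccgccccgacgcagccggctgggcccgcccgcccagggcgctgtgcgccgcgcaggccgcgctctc
Hif1an promoter: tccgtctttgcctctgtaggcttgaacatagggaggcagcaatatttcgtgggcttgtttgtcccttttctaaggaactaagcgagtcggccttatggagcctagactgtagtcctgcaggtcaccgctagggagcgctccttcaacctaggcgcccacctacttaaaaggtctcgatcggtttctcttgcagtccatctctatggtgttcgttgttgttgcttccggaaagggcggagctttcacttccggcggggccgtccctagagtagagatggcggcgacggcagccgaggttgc
The Hif1a window (chr12:73907617-73907916, plus strand) held 3 matches, 2 of them the same palindrome read on both strands, starting 135 and 134 bases before the start, and the third 70 bases before it. The Egln1 window (chr8:124949205-124949504, minus strand) held 1 match to each core, 68 and 126 bases before the start. The windows of Hif1an (chr19:44562604-44562903, plus strand) and Vhl held none of these letters, that of Arnt held 1, that of Hif3a held 2 and the first of 2 Egln2 windows 6. Either core occurred in 43.8% of 32851 RefSeq promoters, so a match is a description and says nothing of binding in these tumors.

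Of the 8 members, 7 passed the filter on low counts, and their levels differed widely. Per kilobase of the longest coding transcript, the median over 28 tumors was 42.6 CPM for Hif1a, 31.6 for Egln1, 24.4 for Egln2, 18.1 for Arnt, 11.5 for Vhl, 6.95 for Hif1an and 4.00 for Epas1. Measured over all exons instead, Vhl (10.7 CPM per kilobase) and Arnt (9.80) changed places and the rest kept their order. Hif3a, the third alpha subunit, held 0 to 12 counts per tumor and at most 0.409 CPM, with 9 of 28 tumors at or under 3 counts. It failed the filter and was not tested with the other 7. Fitted without the filter, Hif3a had its smallest adjusted p, 0.155, in 5-FU+ICB against PBS. It passed the filter only when the 6 tumors of high ribosomal share were left out, and was called in no comparison there.

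**Figure D1:**
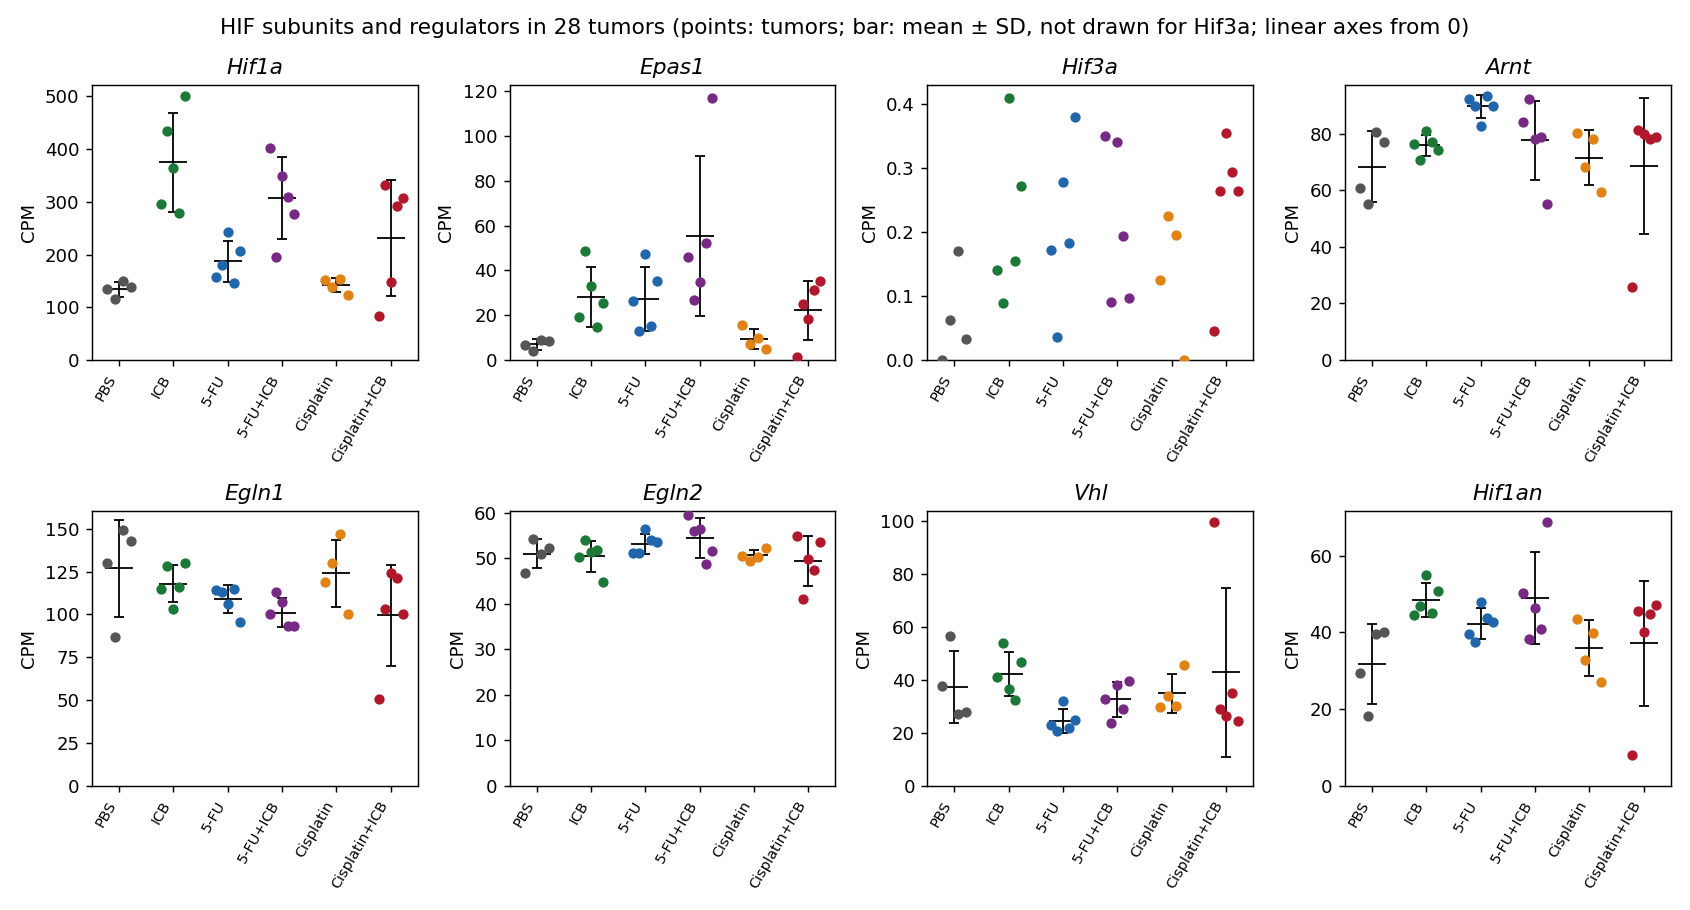
Level of each member in CPM (linear axis from 0) for every tumor, by treatment, with the group mean ± SD as a bar (not drawn for Hif3a). Hif1a and Epas1 sat higher in ICB and 5-FU+ICB than in PBS, and Egln2 stayed between 41.0 and 59.5 CPM. Cisplatin+ICB tumor 1 was the lowest of all tumors in Hif1a, Epas1, Arnt, Egln1 and Hif1an and the highest in Vhl.

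Members varied among tumors to very different degrees. Epas1 had the widest range, from 1.52 to 117 CPM, a ratio of 77.2 between the highest and lowest tumor. The ratio was 8.47 for Hif1an, 6.05 for Hif1a, 4.83 for Vhl, 3.64 for Arnt and 2.97 for Egln1. Egln2 varied least, by a ratio of 1.45.

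Against PBS, ICB raised transcripts of both expressed alpha subunits. By the quasi-likelihood test of edgeR, adjusted by Benjamini-Hochberg across 17916 genes, 3 of 7 members tested were called higher and 0 lower, where 37.8% of all genes were called. A call needed an adjusted p below 0.05 together with a log2 fold change beyond 0.5 in either direction. The groups did not overlap for 3 members, and for 35.4% of all genes. The comparisons with PBS share the same 4 PBS tumors. The median log2 fold change was 0.07 over the members and -0.03 over all genes.

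Hif1a, which encodes HIF-1 alpha, measured 135, 115, 149 and 138 CPM in the PBS tumors and 295, 435, 364, 278 and 501 CPM in the ICB tumors. Every ICB tumor lay above every PBS tumor. The log2 fold change was 1.40 ± 0.21 (SE), or 2.63-fold, with an adjusted p of 0.000269. Epas1 measured 6.45, 3.86, 8.89 and 8.51 CPM after PBS and 19.2, 48.6, 33.1, 14.6 and 25.2 CPM after ICB, again with no overlap. Its log2 fold change was 1.96 ± 0.49, with an adjusted p of 0.00464.

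Hif1an, also called FIH, which blocks the coactivator contact of the alpha subunits, measured 29.5, 18.1, 39.6 and 40.1 CPM in PBS and 44.4, 46.9, 54.9, 45.0 and 50.8 CPM in ICB. The groups did not overlap and the log2 fold change was 0.54 ± 0.19 (adjusted p = 0.0300). The fold shrank when tumors with a high ribosomal protein share were left out: without the 6 such tumors it was 0.25 (adjusted p = 0.122), and without PBS tumor 2 alone it was 0.37 (adjusted p = 0.104). Without PBS tumor 1, ICB tumor 3 or ICB tumor 5 the fold was nearly as large (0.51, 0.50 and 0.53), with adjusted p from 0.0515 to 0.0758. Fitted in the cisplatin matrix, which holds the same PBS and ICB tumors, Hif1an was at 0.51 with an adjusted p of 0.246, and in the joined matrix at 0.50 (adjusted p = 0.187), while Hif1a and Epas1 remained called without the 6 tumors.

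Of the other members after ICB, Arnt, the shared beta subunit, differed by 0.07 (95% interval -0.17 to 0.32) and Egln2 by -0.11 (-0.31 to 0.10). Egln1, the main oxygen sensor of the pathway, differed by -0.18 (-0.43 to 0.08). Vhl differed by 0.06, with a wider interval of -0.45 to 0.57. The intervals for Arnt, Egln1 and Egln2 lay within 0.5 log2 units of 0.

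**Figure D2:**
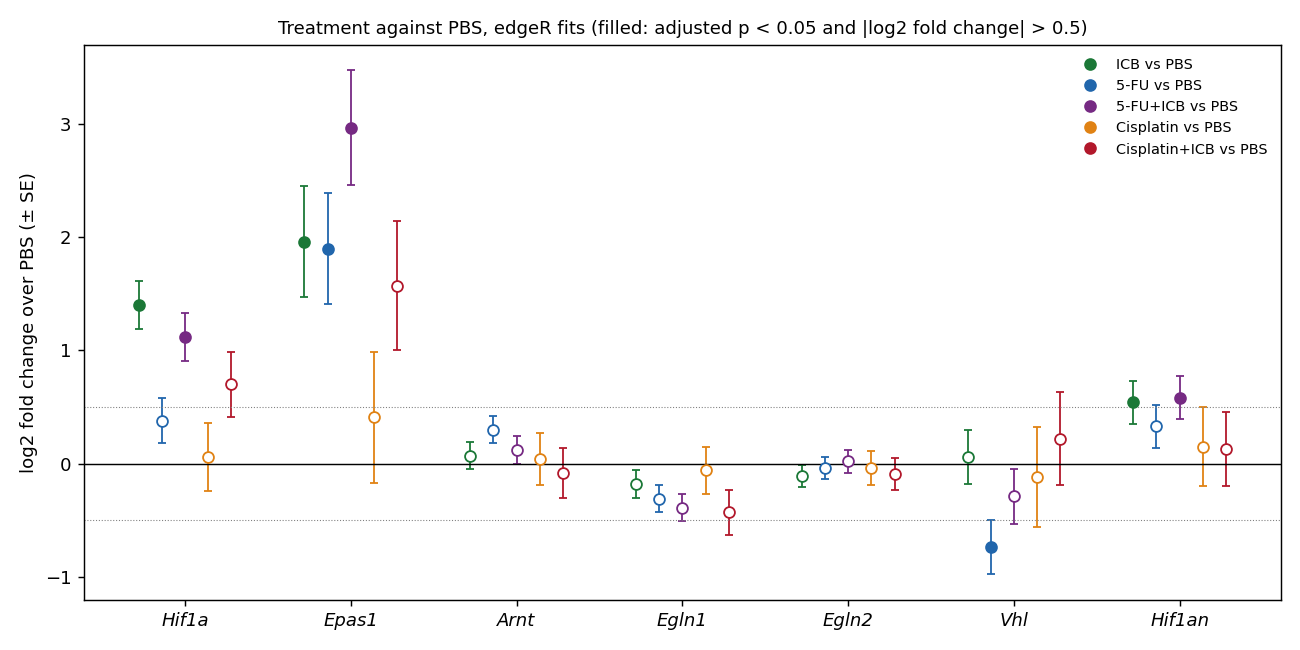
Log2 fold change over PBS (± SE, edgeR) for the 7 members tested, in 5 comparisons. Filled points are called genes, and these were Hif1a and Hif1an after ICB and 5-FU+ICB, Epas1 after ICB, 5-FU and 5-FU+ICB, and Vhl after 5-FU.

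After 5-FU alone Epas1 was higher and Vhl lower than in PBS, while Hif1a did not pass. Of 7 members 1 was called higher and 1 lower, beside 23% of all genes called. Epas1 measured 26.5, 12.7, 47.4, 15 and 35.2 CPM in the 5-FU tumors, all above the PBS tumors, a log2 fold change of 1.90 ± 0.49 (adjusted p = 0.0123). The call was lost without PBS tumor 2 (1.72, adjusted p = 0.0535), in the joined matrix of 6 groups (1.86, adjusted p = 0.0585) and without the 6 tumors of high ribosomal share (1.63, adjusted p = 0.150). In that last fit 0.748% of all genes were called.

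Hif1a stood at 158, 181, 243, 146 and 206 CPM after 5-FU. The lowest 5-FU value fell just under the highest PBS value of 149, and the log2 fold change was 0.38 ± 0.20 (adjusted p = 0.165). Its 95% interval ran from -0.04 to 0.80.

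Vhl, the substrate-binding subunit of the ligase that destroys hydroxylated alpha subunits, measured 37.6, 56.3, 27.2 and 27.7 CPM in PBS and 23.0, 20.5, 32.0, 21.9 and 24.8 CPM after 5-FU. 1 of the 5-FU tumors exceeded 2 of the PBS tumors. The log2 fold change was -0.74 ± 0.24 (adjusted p = 0.0325), but it fell to -0.19 (adjusted p = 0.610) without the 6 tumors of high ribosomal share. Leaving out PBS tumor 2 gave -0.40 (adjusted p = 0.192). Without PBS tumor 1 or any of 5-FU tumors 1, 2, 4 and 5 the fold hardly moved (-0.74 to -0.69), with adjusted p from 0.0584 to 0.0727. The call was also lost in the joined matrix (-0.73, adjusted p = 0.171), without a filter on low counts (-0.61, adjusted p = 0.0935) and with only the groups compared (-0.68, adjusted p = 0.0753).

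Arnt measured 92.4, 89.9, 82.8, 93.5 and 89.8 CPM after 5-FU against 60.9, 55.0, 80.6 and 77.0 CPM in PBS. The groups did not overlap, as was the case for 24.5% of all genes in this comparison, yet the log2 fold change of 0.30 ± 0.12 had an adjusted p of 0.0631. Egln1 differed by -0.31 ± 0.12 (adjusted p = 0.0616) and Egln2 by -0.04 (95% interval -0.25 to 0.16). Hif1an was at 0.33 ± 0.19 (adjusted p = 0.193).

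The combination 5-FU+ICB gave the highest Epas1 of any group. Against PBS 3 of 7 members were called higher and 0 lower, beside 40.7% of all genes called. Epas1 measured 45.9, 26.8, 34.7, 52.1 and 117 CPM, and even the lowest value was above the highest PBS value. The log2 fold change was 2.97 ± 0.51, or 7.86-fold (adjusted p = 0.000722). The value of 117 CPM belonged to 5-FU+ICB tumor 5, the library with 16.1% mitochondrial counts and almost no Msln. Without it alone the log2 fold change was 2.46 (adjusted p = 0.00116). Without the 6 tumors of high ribosomal share, which include it, Epas1 remained called.

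Hif1a measured 403, 196, 350, 309 and 276 CPM after 5-FU+ICB, all above PBS, a log2 fold change of 1.12 ± 0.21 (adjusted p = 0.00101). Hif1a and Epas1 were the 2 members without overlap here, as were 24.5% of all genes. Hif1an measured 50.3, 38.2, 46.4, 40.9 and 68.7 CPM, and its lowest value lay under the 2 highest of PBS. The log2 fold change of 0.58 ± 0.19 (adjusted p = 0.0202) shrank to 0.11 (adjusted p = 0.519) without the 6 tumors, and to 0.41 and 0.39 without PBS tumor 2 or 5-FU+ICB tumor 5 (adjusted p = 0.0725 and 0.0585). The call was also lost at folds of 0.55 without PBS tumor 1 (adjusted p = 0.0552), 0.54 in the joined matrix (0.151) and 0.64 with only the groups compared (0.0795).

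Egln1 moved the other way from the alpha subunits. It measured 130, 86.7, 149 and 143 CPM in PBS and 100, 113, 107, 93.0 and 93.1 CPM after 5-FU+ICB, a log2 fold change of -0.39 ± 0.12. The adjusted p was 0.0148, but the size stayed under the 0.5 required for a call. Without PBS tumor 2, the low PBS value, it was -0.51 (adjusted p = 0.00396), and without the 6 tumors -0.53 (adjusted p = 0.0258), both of which are calls. Arnt differed by 0.12 (95% interval -0.12 to 0.36), Egln2 by 0.02 (-0.19 to 0.22) and Vhl by -0.29 (-0.80 to 0.21).

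No member was called between the combination and either of its parts. Between 5-FU+ICB and ICB, where 0.229% of genes were called, Epas1 differed by 1.01 ± 0.43 (adjusted p = 0.402), or by 0.49 without 5-FU+ICB tumor 5, and Hif1a by -0.28 ± 0.19 (adjusted p = 0.633). Against 5-FU, where 0.0112% of genes were called, Hif1a differed by 0.74 ± 0.19 with an unadjusted p of 0.00105 and an adjusted p of 0.131. The 2 groups overlapped only through 5-FU+ICB tumor 2 (196 CPM), and Hif1a was called by DESeq2 (adjusted p = 0.0235), without that tumor (0.86, adjusted p = 0.0177) or without 5-FU tumor 3 (0.85, adjusted p = 0.0412). Many other genes were called in these same fits, 539 by DESeq2, 10.9% of genes without 5-FU+ICB tumor 2 and 3.58% without 5-FU tumor 3. Epas1 differed by 1.08 ± 0.43 from 5-FU (adjusted p = 0.232), or by 0.56 without 5-FU+ICB tumor 5.

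In the interaction test, which asks whether 5-FU acted differently with ICB than without it, 0 of 7 members were called and 0.0893% of all genes were. Hif1a came closest, at -0.66 ± 0.28 with a 95% interval from -1.24 to -0.08 (adjusted p = 0.158). Its log2 fold change with 5-FU was 0.38 against PBS (adjusted p = 0.165) and -0.28 on top of ICB (adjusted p = 0.633), neither of them called. The interaction of Epas1 was -0.89 ± 0.63 (adjusted p = 0.403), or -1.41 without 5-FU+ICB tumor 5 (adjusted p = 0.131).

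No member was called between cisplatin and PBS, where 0% of 17819 genes were called by edgeR, with 317 genes at an unadjusted p under 0.05, while DESeq2 called 4 genes and 0 members. Hif1a measured 152, 139, 153 and 124 CPM, a difference of 0.06 with a 95% interval from -0.57 to 0.68. Epas1 measured 15.5, 6.99, 9.96 and 5.04 CPM, a difference of 0.41 with an interval from -0.82 to 1.64, and its tumors overlapped those of PBS. Intervals this wide do not show that the levels were alike. The intervals of the other 5 members all included 0, the widest being that of Vhl (-1.04 to 0.80).

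Cisplatin+ICB depended on 1 tumor. With all 5 tumors 0 members were called against PBS, beside 6.1% of all genes. Hif1a measured 82.9, 332, 148, 293 and 307 CPM and Epas1 1.52, 24.9, 18.3, 31.0 and 35.3 CPM. Tumor 1, with 14% ribosomal protein counts, was the lowest of all 28 tumors in both. The log2 fold changes were 0.70 ± 0.29 for Hif1a (adjusted p = 0.147) and 1.57 ± 0.57 for Epas1 (adjusted p = 0.104), and DESeq2 called Epas1 (adjusted p = 0.0312). Egln1 stood at -0.43 ± 0.20 (adjusted p = 0.200), with tumor 1 the lowest of the group at 50.4 CPM and the others at 100 to 124.

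Without tumor 1, Hif1a was 0.96 higher than PBS (adjusted p = 0.00489) and Epas1 1.95 higher (adjusted p = 0.00234), both calls, in a fit that called 6277 genes in place of 1087. Without all 6 tumors of high ribosomal share Epas1 was the only member called, at 1.65 (adjusted p = 0.0363), beside 12.4% of all genes. Against cisplatin alone, where 0% of genes were called with all tumors (2530 at an unadjusted p under 0.05, and 783 called by DESeq2), 0 members were called. Leaving out tumor 1 brought Hif1a to 0.89 and Epas1 to 1.53, both with an adjusted p of 0.0187, and 2114 genes in all.

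Against ICB alone 0% of genes and 0 members were called by edgeR (2839 genes at an unadjusted p under 0.05, and 52 called by DESeq2, with 0 members). Hif1a differed by -0.68 ± 0.27 (adjusted p = 0.291), or by -0.46 without tumor 1. In the interaction of cisplatin with ICB 0% of genes and 0 members were called, with 1273 genes at an unadjusted p under 0.05 and 1 called by DESeq2. The interaction of Hif1a was -0.74 ± 0.40 (adjusted p = 0.564).

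The 2 chemotherapies were compared in the joined matrix of 6 groups and 18521 genes. Between 5-FU and cisplatin 0 members and 0.362% of genes were called. Epas1 had a mean of 27.3 ± 14.4 CPM (SD, n = 5) after 5-FU and 9.37 ± 4.56 CPM (n = 4) after cisplatin, a log2 difference of 1.46 ± 0.57 (adjusted p = 0.216). Arnt did not overlap between these groups, as did not 12.6% of genes, at a difference of 0.25 (adjusted p = 0.526). Between 5-FU+ICB and cisplatin+ICB 0.297% of genes and 0 members were called, with Epas1 at 1.36 ± 0.52 (adjusted p = 0.119), or at 0.85 without 5-FU+ICB tumor 5.

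The balance of the 2 alpha subunits differed by group. Per tumor, the log2 ratio of Hif1a to Epas1 averaged 4.33 ± 0.40 (SD, n = 4) in PBS, 4.03 ± 0.57 (n = 4) in cisplatin, 3.82 ± 0.50 (n = 5) in ICB and 3.76 ± 1.13 (n = 5) in cisplatin+ICB. It was 2.92 ± 0.62 (n = 5) after 5-FU and 2.63 ± 0.83 (n = 5) after 5-FU+ICB. Both combinations rested in part on 1 tumor: without 5-FU+ICB tumor 5 (1.24) that group averaged 2.98 ± 0.33 (n = 4), no longer under 5-FU, and without cisplatin+ICB tumor 1 (5.71) the other averaged 3.27 ± 0.32 (n = 4). In CPM, with no allowance for transcript length, Hif1a thus exceeded Epas1 by 16.2- to 29.9-fold in the PBS tumors. In the 5-FU+ICB tumors it did so by 2.36- to 10.1-fold, or 5.93- to 10.1-fold without tumor 5. These groups did not overlap, at 4.01 to 4.88 against 1.24 to 3.33, and the ratios are given as a description without a test. The order of neighbors from PBS to cisplatin+ICB lies within their SDs.

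**Figure D3:**
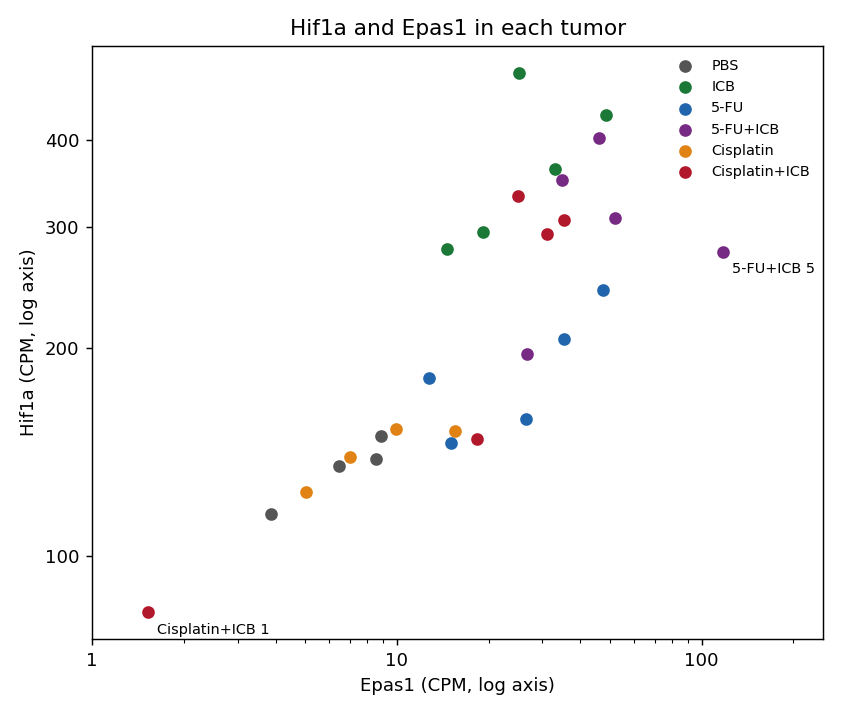
Hif1a against Epas1 in CPM (both axes logarithmic), 1 point per tumor colored by treatment. PBS and cisplatin tumors lie at the lower left, ICB tumors are high in Hif1a, and the 5-FU and 5-FU+ICB tumors partly overlap the others in the ratio of the 2, with 5-FU+ICB tumor 5 farthest right at 117 CPM of Epas1.

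Markers of endothelial and immune cells were set beside the alpha subunits. In bulk tumors, fewer cells of a type and less RNA per cell cannot be told apart. The summed level of 6 endothelial markers (Pecam1, Cdh5, Kdr, Tek, Vwf and Emcn, none at 0 in any tumor) was 64.9 to 125 CPM in PBS, 141 to 305 in ICB, 144 to 354 in 5-FU and 157 to 666 in 5-FU+ICB. It was 72.8 to 106 CPM in cisplatin and 30.7 to 192 in cisplatin+ICB. The highest sum, 666 CPM, and the lowest, 30.7 CPM, came from 5-FU+ICB tumor 5 and cisplatin+ICB tumor 1, which also held the highest and the lowest Epas1. Against PBS 3 of the 6 were called higher after ICB, 3 after 5-FU, 6 after 5-FU+ICB and 0 after cisplatin+ICB, where 37.8%, 23%, 40.7% and 6.1% of all genes were called in either direction. Without 5-FU+ICB tumor 5 alone 5 were called in that group (36.8% of genes), and without cisplatin+ICB tumor 1 alone 2 in that one (35.3%). Without the 6 tumors of high ribosomal share 1 was called after ICB and 0 in the other 3 groups, beside 20%, 0.748%, 7.18% and 12.4% of genes. The part of these cells in the Epas1 values was not tested.

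The 6 macrophage markers (Cd68, Csf1r, Adgre1, Mrc1, C1qa and Lyz2, none at 0) summed to 1970 to 5040 CPM in PBS, 5500 to 16600 in ICB and 2560 to 12400 in 5-FU. After 5-FU+ICB they summed to 1950 to 12700 CPM, after cisplatin to 1820 to 4160 and after cisplatin+ICB to 3070 to 8960. Against PBS 6 of 6 were called higher after ICB, 2 after 5-FU, 3 after 5-FU+ICB and 1 (Adgre1) after cisplatin+ICB, beside 37.8%, 23%, 40.7% and 6.1% of all genes called in either direction. The tumor lowest in Hif1a had the lowest macrophage sum of its group in ICB (5500 CPM), 5-FU (2560) and 5-FU+ICB (1950), and the highest in PBS (tumor 2, 5040), cisplatin (tumor 4, 4160) and cisplatin+ICB (tumor 1, 8960), these 3 being libraries with a ribosomal share over 6%. Ptprc, which marks all leukocytes, rose by 2.00 after ICB, 2.15 after 5-FU+ICB and 1.41 after cisplatin+ICB (adjusted p = 0.0238) on the log2 scale and stood at 1.09 after 5-FU (adjusted p = 0.0654). Of 4 T cell markers 4 were called higher in each of ICB, 5-FU and 5-FU+ICB, and 3 in cisplatin+ICB. Without the 6 tumors of high ribosomal share, 5 macrophage and 3 T cell markers were called after ICB, 0 and 0 after 5-FU, 1 and 2 after 5-FU+ICB, and 2 and 3 after cisplatin+ICB. Of all genes 20%, 0.748%, 7.18% and 12.4% were called in these fits. The part of macrophages and other leukocytes in the Hif1a values was not tested.

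Msln, the abundant marker of the tumor line, made up 92% or more of the mesothelial marker sum in every tumor but 5-FU+ICB tumor 5 (0.998%). The sum was 263 to 329 CPM in PBS, 56.0 to 220 in ICB, 48.5 to 177 in 5-FU and 38.9 to 163 in 5-FU+ICB. Msln was called lower after 5-FU+ICB (log2 fold change -2.28, adjusted p = 0.0238) but not after ICB (-1.51, adjusted p = 0.117) or 5-FU (-1.54, adjusted p = 0.136). The scarcer Wt1 was called higher after ICB, 5-FU, 5-FU+ICB and cisplatin+ICB, and Krt19 after 5-FU+ICB, where tumor 5 held 47.3 CPM and the other 4 tumors 0.0900 to 1.94, and without tumor 5 Krt19 was not called. Msln was not called after 5-FU+ICB without the 6 tumors of high ribosomal share.

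Skeletal muscle transcripts (Acta1, Ckm, Myh4 and Tnnt3) summed to 85.9 to 148 CPM in PBS (median 110), 0.740 to 3020 in ICB (median 38.4), 6.11 to 1260 in 5-FU (median 1060) and 1.14 to 3800 in 5-FU+ICB (median 680), the highest value being that of tumor 5. The ranges of these treated groups reached both under and over that of PBS, and 0 of 4 were called in these comparisons. Adipocyte markers likewise ran from 8.75 to 17.8 CPM in PBS, from 4.45 to 142 in 5-FU and from 0.503 to 74.6 in ICB, also with 0 of 4 called. Fibroblast markers ran from 564 to 1990 CPM in PBS and from 2270 to 4330 in 5-FU, where 2 of 4 were called higher, beside 23% of all genes. In 5-FU+ICB they ran from 2370 to 3540 CPM, with 1 of 4 called higher beside 40.7% of all genes. Neutrophil markers ran from 8.58 to 16.4 CPM in PBS, from 59.8 to 169 in ICB and from 34 to 112 in cisplatin+ICB. Of 4, 2 were called higher after ICB, 1 after 5-FU, 1 after 5-FU+ICB and 4 after cisplatin+ICB. Of all genes 37.8%, 23%, 40.7% and 6.1% were called in either direction, in the same order. With the 6 tumors of high ribosomal share left out, 0 fibroblast markers were called after 5-FU. Neutrophil markers called were then 4, 0, 0 and 4 after ICB, 5-FU, 5-FU+ICB and cisplatin+ICB. Of all genes 20%, 0.748%, 7.18% and 12.4% were called in these fits. The 3 proliferation genes summed to 672 to 1370 CPM in PBS and 408 to 1140 in ICB, with 1 called lower, beside 37.8% of all genes called.

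With group means removed, several members varied together across the 28 tumors. Pearson's r and Spearman's rho were computed for 28 pairs, with p-values from 100000 permutations within groups and Benjamini-Hochberg adjustment over the pairs. Hif1a and Epas1 gave r = 0.77 and rho = 0.63 (permutation p = 0.00061 and 0.0015, adjusted 0.0055 and 0.010), and r = 0.59 without the 2 tumors farthest from the median of Hif1a. Hif1an followed both alpha subunits, with r = 0.89 and rho = 0.84 to Epas1 (permutation p = 1e-05, the smallest these permutations can give, and 2e-05, adjusted 0.00014 and 0.00028). With Hif1a its r was 0.73 and its rho 0.59 (permutation p = 0.00078 and 0.0012, adjusted 0.0055 and 0.010). Without the 2 farthest tumors r was 0.76 for Epas1 with Hif1an and 0.45 for Hif1a with Hif1an. Within the 22 tumors of lower ribosomal share these 3 pairs gave r of 0.63, 0.56 and 0.69.

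Arnt and Vhl ran opposite, with r = -0.91 and rho = -0.84 (permutation p = 1e-05 for each, adjusted 0.00014 and 0.00028), -0.84 without the 2 farthest tumors and -0.75 within the 22 tumors. Arnt and Egln1 gave r = 0.84 and rho = 0.65 (permutation p = 0.0011 and 0.0039, adjusted 0.0062 and 0.022), but r was -0.03 within the 22 tumors. Signs also turned with the tumors used: Hif1a with Vhl gave -0.38 over all 28 tumors and 0.65 within the 22, and Vhl with Hif1an gave -0.75 and 0.46. For Arnt with Hif1a the values were 0.60 and -0.54.

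Ribosomal protein share moved with several of these values. The 5 lowest tumors in Hif1an were cisplatin+ICB tumor 1 (8.11 CPM), PBS tumor 2 (18.1), cisplatin tumor 4 (27.0), PBS tumor 1 (29.5) and cisplatin tumor 2 (32.9), and all 5 were among the 6 tumors with a ribosomal protein share over 6%. The lowest 5 in Epas1 were the same tumors. The lowest 5 in Arnt were all among the 6 as well, 25.7 CPM being the lowest, in cisplatin+ICB tumor 1. Vhl was highest in cisplatin+ICB tumor 1 (99.3 CPM) and PBS tumor 2 (56.3), followed by ICB tumor 2 (53.8), whose ribosomal share was 3.47%. The sixth tumor over 6%, 5-FU+ICB tumor 5, instead had the highest Hif1an of all, 68.7 CPM. The part of library composition in these values was not tested.

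**Figure D4:**
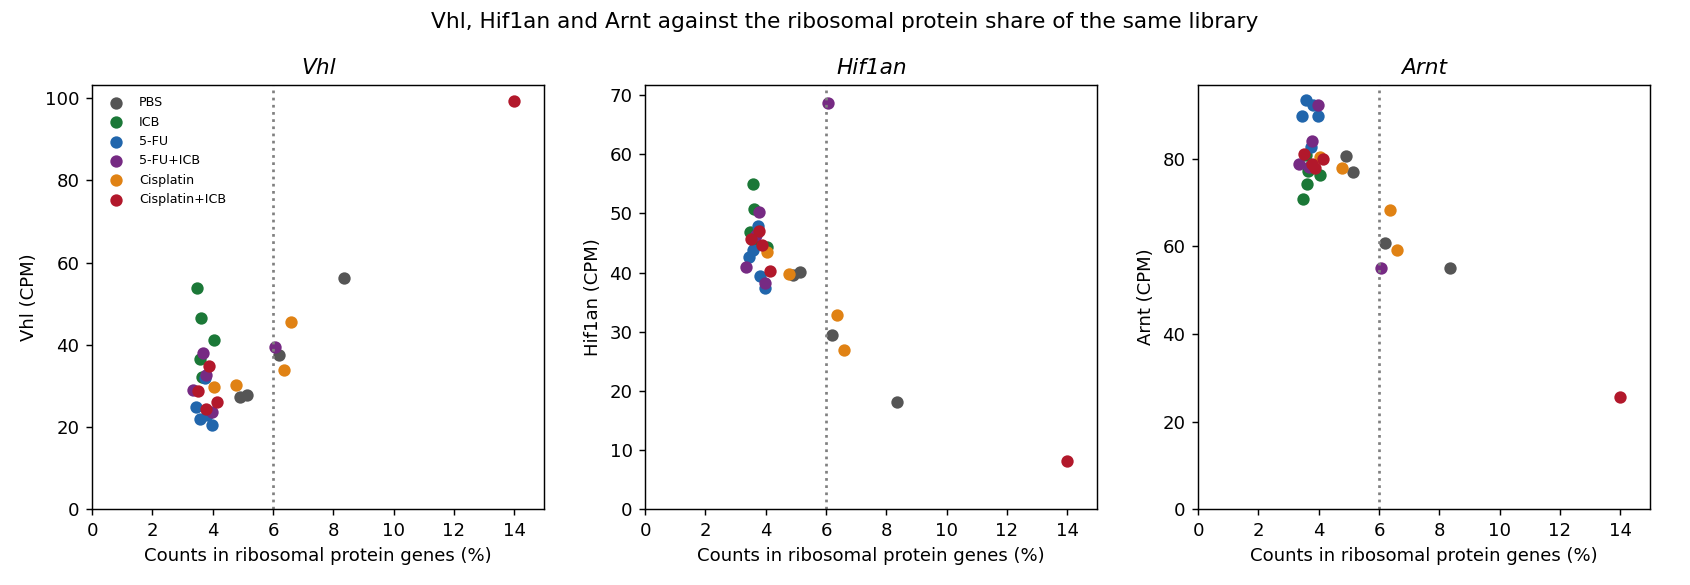
Vhl, Hif1an and Arnt in CPM (linear axes from 0) against the percentage of counts in ribosomal protein genes, 1 point per tumor, with a dotted line at 6%. Hif1an and Arnt are low and Vhl is high in cisplatin+ICB tumor 1 at 14% and PBS tumor 2 at 8.36%, and 5-FU+ICB tumor 5, just right of the line, has the highest Hif1an at 68.7 CPM.

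Among 13329 other genes with a mean count of at least 50, the 2 most like a member over the 28 tumors were named for 7 members by Pearson's r of log2 CPM, as a description. Hif1a was most like Scarf1, a scavenger receptor, and Slc35f6, both with r = 0.98. Epas1 was most like Il6st, the signaling subunit of the receptors for the interleukin-6 family, and Nup210, a nuclear pore protein, both with r = 0.97. Arnt was most like Rnf24 and Nfix (both 0.98), and Hif1an was most like Tbcel and Synrg (both 0.98). Egln1 was most like Scd2, a fatty acid desaturase, and Acly, which makes acetyl-CoA for lipid synthesis (both 0.93, and 0.85 and 0.86 without cisplatin+ICB tumor 1). For Egln2, which hardly varied, the highest r was 0.70 (Gm42928 and 4930524O07Rik), and for the near-silent Hif3a 0.74 (Dnajb14 and Filip1). These values share the libraries and their composition.

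A list of 18 further genes that act with or on HIF proteins was followed. Against PBS, 4 were called higher and 7 lower after ICB, 2 and 6 after 5-FU, and 5 and 5 after 5-FU+ICB, beside 37.8%, 23% and 40.7% of all genes called. None of the 18 was called in the other comparisons with all tumors. In the 5-FU interaction 6 were called without PBS tumor 3, 4 without PBS tumor 4 and 2 without 5-FU+ICB tumor 4, in fits that called 9.27%, 5.56% and 5.35% of all genes in place of 0.0893%, and 4 by DESeq2, which called 1542 genes. Between the combinations 2 were called without 5-FU+ICB tumor 2 and 1 without cisplatin+ICB tumor 5, beside 11.6% and 6.1% of genes in place of 0.297%, and 2 by DESeq2 beside 1620 genes. Between 5-FU and cisplatin 2 were called with only the groups compared (5.62% of genes) and 1 by DESeq2 (663 genes). Single calls also arose in 5-FU+ICB against ICB by DESeq2 or without ICB tumor 3 and in cisplatin+ICB against cisplatin without cisplatin+ICB tumor 1 (11.9% of genes). Rack1, a ribosome-bound scaffold that also promotes oxygen-independent loss of HIF-1 alpha, fell by 1.28 after ICB (adjusted p = 0.00203), by 1.39 after 5-FU (adjusted p = 0.00476) and by 1.14 after 5-FU+ICB (adjusted p = 0.00401). Arnt2, a second beta subunit, was at 0.446 to 3.87 CPM and rose by 1.23, 1.10 and 1.22 in the same order. Ep300, a coactivator of HIF, rose by 0.95 after ICB (adjusted p = 0.0216). Crebbp, its close relative, rose by 0.81 after ICB, by 0.99 after 5-FU and by 0.90 after 5-FU+ICB (adjusted p = 0.0348, 0.0222 and 0.0192). P4htm, a transmembrane prolyl hydroxylase, rose by 1.43 after 5-FU+ICB (adjusted p = 0.0332).

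Without the 6 tumors of high ribosomal share, 1 partner was called after ICB (Rack1), 0 after 5-FU and 1 after 5-FU+ICB (again Rack1), beside 20%, 0.748% and 7.18% of all genes called. In cisplatin+ICB against PBS 2 were called lower there (Rack1 and Elob, the latter named after its values were seen), beside 12.4% of genes. Leaving out single tumors gave 5 to 12 calls after ICB, fewest without PBS tumor 2, in fits that called 28.4% to 39.8% of all genes. After 5-FU+ICB it gave 6 to 12, fewest without PBS tumor 1, PBS tumor 2 or 5-FU+ICB tumor 4, beside 30.6% to 48.8% of genes. After 5-FU it gave 1 without PBS tumor 2, 4 without PBS tumor 1 and 6 to 8 otherwise, beside 7.87%, 10.5% and 14.1% to 25.9% of genes. In cisplatin+ICB against PBS 7 partners were called without cisplatin+ICB tumor 1, beside 35.3% of genes.

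Several HIF target genes fell in 5-FU groups in which Epas1 rose. Of 12 targets, ICB raised 3 and lowered 0, 5-FU raised 0 and lowered 6, and 5-FU+ICB raised 0 and lowered 6, against PBS, beside 37.8%, 23% and 40.7% of all genes called in either direction. Medians over the 12 were 0.19, -0.70 and -0.59, where those over all genes were -0.03, -0.01 and -0.04. After cisplatin 0 of 12 were called, beside 0% of all genes. Cisplatin+ICB raised 2, Ndrg1 by 0.83 (adjusted p = 0.0296) and Slc2a1 by 0.80 (adjusted p = 0.0451), beside 6.1% of all genes. The count in cisplatin+ICB was 4 without its tumor 1 (35.3% of genes) and 1 without PBS tumor 2 (4.35%) or cisplatin+ICB tumor 5 (2.04%). It was 0 without any of PBS tumors 1, 3 and 4, where 0% of genes were called, or cisplatin+ICB tumors 2 and 4 (1.4% and 1.5%). The list was chosen with earlier results of these tumors known, so its count is not independent evidence of a direction.

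Car9, a carbonic anhydrase that is among the most oxygen-dependent HIF-1 targets, had means of 13.9 ± 5.43 CPM (SD, n = 4) in PBS, 13.1 ± 3.88 (n = 5) in ICB, 2.21 ± 0.559 (n = 5) in 5-FU and 3.10 ± 1.11 (n = 5) in 5-FU+ICB. No 5-FU tumor exceeded 2.69 CPM and no PBS tumor was under 9.76. Its log2 fold change was -2.78 ± 0.35 after 5-FU (adjusted p = 0.000361) and -2.26 ± 0.35 after 5-FU+ICB (adjusted p = 0.000378), the group in which Hif1a had risen by 1.12 and Epas1 by 2.97. Pdk1, which turns pyruvate away from the mitochondria, fell by 2.02 and 1.60 (adjusted p = 0.000139 and 7.43e-05). Bnip3, a mitophagy receptor, fell by 2.22 after 5-FU (adjusted p = 0.000983) and by 1.63 after 5-FU+ICB (adjusted p = 0.00146), and Ankrd37 fell by 2.19 after 5-FU (adjusted p = 0.00258).

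After ICB alone, where Hif1a was also higher, the 3 targets that rose were Slc2a1, the glucose transporter GLUT1, by 1.29 (adjusted p = 0.000456), Ndrg1 by 1.13 (adjusted p = 0.00230) and Pfkfb4, a regulator of glycolysis, by 1.06 (adjusted p = 0.00645). Slc2a1 measured 152 ± 40.1 CPM (SD, n = 5) in ICB and 58.7 ± 4.69 (n = 4) in PBS. Car9 and Pdk1 stood at -0.20 ± 0.33 and -0.35 ± 0.20 there and were not called. In the direct comparison of 5-FU+ICB with ICB, Car9 (-2.06), Bnip3 (-1.57) and Pdk1 (-1.25) were called lower and 0 of 12 higher. Leaving out 1 tumor at a time gave 0 to 5 calls here. It was 0 without ICB tumor 4 (0.00562% of genes) or 5-FU+ICB tumor 1 (0.0168%), 1 without ICB tumor 2 (0.0506%), and 5 without ICB tumor 3 (0.241%). With only the groups compared 0 were called (0% of genes), with the replicate block or in the joined matrix 1 (0.0447% and 0.27%), and by DESeq2 7 (0.92%). The main fit of this comparison called 0.229% of all genes. The number called after ICB was 3 whichever PBS or ICB tumor was left out, and those after 5-FU and 5-FU+ICB against PBS numbered 5 to 6 and 5 to 7. These fits called 28.4% to 39.8%, 7.87% to 25.9% and 30.6% to 48.8% of all genes.

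**Figure D5:**
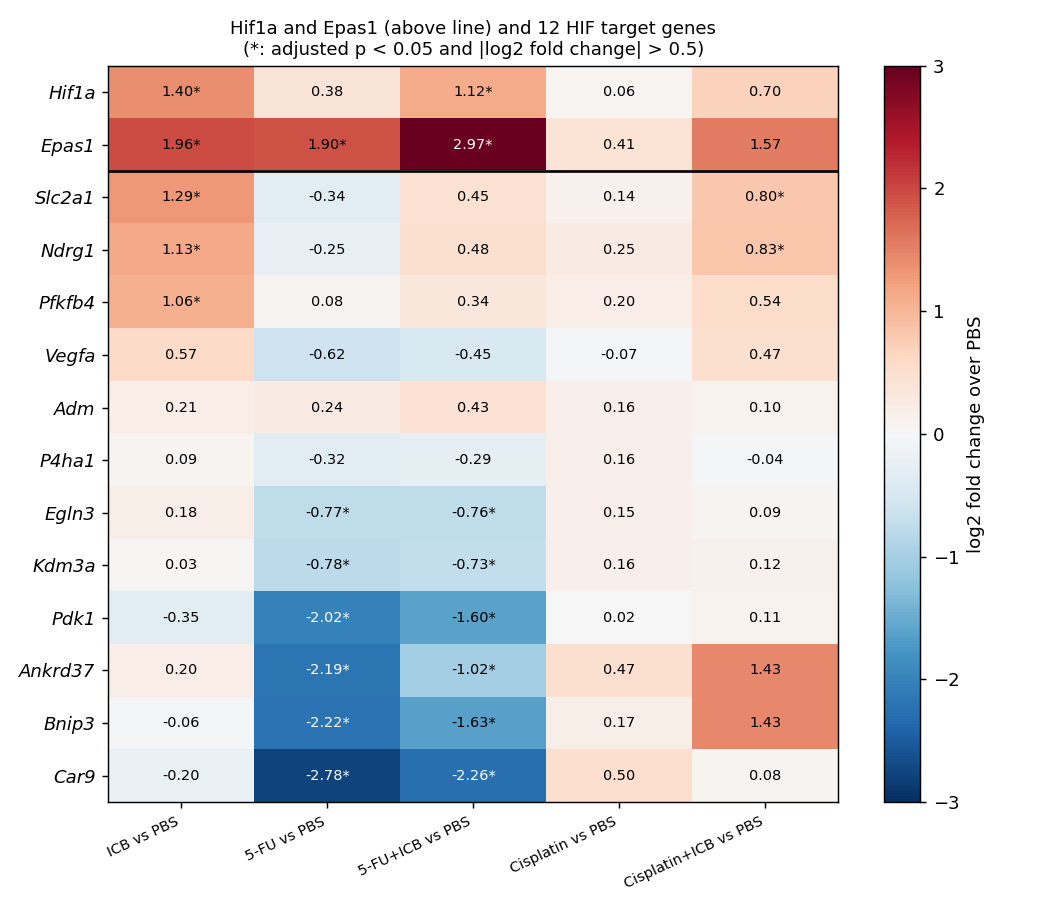
Log2 fold change over PBS of Hif1a and Epas1 (above the line) and of 12 HIF target genes (below it) in 5 comparisons, with an asterisk where the gene was called. In the 5-FU+ICB column Hif1a (1.12) and Epas1 (2.97) are higher while 6 targets are lower, the largest falls being those of Car9 (-2.26), Bnip3 (-1.63) and Pdk1 (-1.60).

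Against cisplatin, 5-FU lowered 4 targets (among them Car9 by 3.27, Ankrd37 by 2.64 and Pdk1 by 2.04), and 5-FU+ICB lowered 5 against cisplatin+ICB, Bnip3 (-3.05), Ankrd37 (-2.44) and Car9 (-2.35) having the largest folds. Of all genes 0.362% and 0.297% were called in these comparisons. The folds of the combinations drew on cisplatin+ICB tumor 1, where Bnip3 was at 1040 CPM against 67.2 to 107 in the other 4 tumors and Car9 at 38.2 against 4.32 to 14.2. Ankrd37 ran from 3.53 to 36.1 CPM in that group. The counts moved when single tumors were left out. Between 5-FU and cisplatin, 0 were called without cisplatin tumor 2 (0.00528% of genes). It was 2 without 5-FU tumor 3 (0.0704%) or cisplatin tumors 3 or 4 (0.0316% and 0.0791%), and 6 by DESeq2 (1.81%). Between the combinations 0 were called without 5-FU+ICB tumor 1 or 5 (0.00541% and 0.0163%) and 1 without cisplatin+ICB tumor 1 (0.0596%). It was 2 without 5-FU+ICB tumor 3 (0.368%) or cisplatin+ICB tumor 3 (0.108%). The count reached 7 without cisplatin+ICB tumor 5 (6.1%) and by DESeq2 (4.42%). Between 5-FU+ICB and 5-FU no target was called by edgeR with all tumors, and 2 were called by DESeq2 (1.52% of genes). The count was 3 without 5-FU+ICB tumor 2 and 2 without 5-FU tumor 3, beside 10.9% and 3.58% of genes. All 12 had a log2 fold change above 0 there, with a median of 0.34. Egln3, the hydroxylase that HIF itself induces, is on both lists and is named here after its values were seen. It fell by 0.77 after 5-FU and 0.76 after 5-FU+ICB (adjusted p = 0.0177 and 0.0101).

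Without the 6 tumors of high ribosomal share, 3 targets remained called lower after 5-FU (Bnip3, Car9 and Pdk1) and 2 after 5-FU+ICB (Car9 and Pdk1), and 3 were called higher after ICB. In 5-FU+ICB against ICB 3 were still called lower, but 0 of 12 were called between the combinations. In that fit 0.026% of genes were called. Between 5-FU and cisplatin 4 of 12 were called lower without these tumors (Ankrd37, Bnip3, Car9 and Pdk1), beside 0.0935% of genes.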

How the data were processed

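Whole subcutaneous AB1-HA tumors from 28 mice were sequenced as 100-base single-end Illumina reads. Per the labels and methods, the authors ran bcl2fastq 2.20.0.422 and kallisto 0.46.0 against GRCm38 and summarized transcripts with tximport, and deposited 2 matrices of estimated counts (expected counts) that share 9 PBS and ICB tumors with identical values. Estimated counts were rounded. Reads shared by transcripts or overlapping genes are split by estimation. Every column was used (0 left out).

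In R 4.3.3, genes passing filterByExpr were fitted with edgeR 4.0.16 (TMM, glmQLFit, glmQLFTest) across all groups of a matrix, with Benjamini-Hochberg adjustment over all genes: 17916 in the 5-FU matrix (also for ICB against PBS), 17819 in the cisplatin matrix and 18521 in a join of both for comparisons between chemotherapies. Log2 fold changes are those of the edgeR fit at its default setting, and levels are TMM-scaled CPM. The log2 CPM used for the ratios, correlations and likeness has a prior count of 2. Genes were called at an adjusted p of 0.05 and a log2 fold change of 0.5.

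The genes and lists were chosen with earlier results of these data known. The named genes were all members, up to 3 called genes with the largest change per list and comparison, with their values elsewhere, and the 2 genes most like each member, those for Vhl not being reported here. Alternatives were DESeq2 1.42.0, its size factors, other filters and prior counts, the joined matrix, only the groups compared, a replicate block and leaving out each tumor. Leaving out tumors over 6% ribosomal protein counts was chosen after seeing the data. The scripts were tested on simulated data of ICB against PBS, with 200 of 17916 genes changed and the same dispersion for every gene. The test recovered 20.5% of log2 changes of 1 and 100% of log2 changes of 2.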

Additional observations from a re-analysis of the deposited data

Results flagged for a closer look

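In 4 of 48 sets of tumors examined (8 members in 6 groups), 1 tumor lay far from the others of its group by Dixon's test, and chance gives about 1 in 20 such sets. Cisplatin+ICB tumor 1 gave 3 of them: Arnt was at 25.7 CPM where the other tumors of the group held 78.0 to 81.2, Hif1an was at 8.11 CPM against 40.2 to 47.1, and Vhl was at 99.3 CPM against 24.3 to 34.8. This library also had the highest ribosomal protein share (14%) and the lowest mitochondrial share (1.03%) of all 28. The other was Epas1 in 5-FU+ICB tumor 5, at 117 CPM against 26.8 to 52.1 CPM, in the library with the highest mitochondrial share (16.1%), the lowest Msln (0.484 CPM) and the highest endothelial marker sum (666 CPM). The part of these properties in the values was not tested.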

How the results depend on the processing

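Of 1680 alternative member fold changes 1551 kept their direction and call, 26 lost a call, 11 gained one and 92 turned sign, 0 of the last among called changes. After 5-FU, 1 member was called without a filter on low counts and 1 with only the groups compared, beside 6.95% and 23.4% of all genes. It was 0 in the joined matrix (4.45%) and 0 without the tumors over 6% ribosomal protein counts (0.748%). When 1 tumor was left out it was 0 to 2, beside 7.87% to 25.9% of all genes. In 5-FU+ICB against 5-FU, DESeq2 called 1 (1.52% of genes), and leaving out 1 tumor gave 0 to 1 (0% to 10.9%). In cisplatin+ICB against PBS, DESeq2 called 1 (6.09%), and leaving out 1 tumor gave 0 to 2 (0% to 35.3%). There 1 was also called without the high ribosomal tumors (12.4%). In cisplatin+ICB against cisplatin, leaving out 1 tumor gave 0 to 2 (0% to 11.9%). The cause was not tested. Without the tumors of high ribosomal share, genes called fell from 6771 to 3742 after ICB, from 4115 to 140 after 5-FU and from 7283 to 1343 after 5-FU+ICB. These fits kept only PBS tumors 3 and 4 as controls, so the smaller group and the ribosomal share cannot be told apart. DESeq2 called 327 genes in place of 41 in 5-FU+ICB against ICB, 539 in place of 2 against 5-FU, 2156 in place of 1087 in cisplatin+ICB against PBS, 663 in place of 67 between chemotherapies, 1620 in place of 55 between combinations and 1542 in place of 16 in the 5-FU interaction. Without a filter 2469 genes were called after 5-FU, and 825 in the joined matrix. With only the groups compared, 0 genes were called in cisplatin+ICB against PBS and between combinations and 943 between chemotherapies. The replicate block left members called after ICB, 5-FU and 5-FU+ICB at 3, 2 and 3, beside 33.7%, 18.6% and 35.8% of all genes. It moved genes called from 1087 to 95 in cisplatin+ICB against PBS, from 67 to 5 between chemotherapies and from 41 to 8 in 5-FU+ICB against ICB. With group means removed, tumors of the same number in different groups had a median r of -0.04 over 66 pairs (-0.78 to 0.75). The median was 0.02 over 260 other pairs. The numbers come from the sample titles, and no other grouping of the tumors was checked.

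The log2 fold changes that turned sign were none of them called. Without the tumors over 6% ribosomal protein counts, the sign turned for Arnt -0.08 (ICB against PBS), Egln2 0.03 (5-FU against PBS), Vhl 0.14 (5-FU+ICB against PBS), Hif1an -0.14 (5-FU+ICB against ICB), Vhl 0.13 (cisplatin against PBS), Arnt 0.01 (cisplatin+ICB against PBS), Egln2 -0.06 and Vhl -0.55 and Arnt 0.08 (cisplatin+ICB against ICB), Hif1an 0.09 and Vhl -0.08 (cisplatin+ICB against cisplatin), Egln2 0.07 (5-FU against cisplatin), Egln1 -0.14 and Vhl 0.09 and Hif1an -0.03 (5-FU+ICB against cisplatin+ICB), Vhl -0.26 (the interaction of 5-FU with ICB), Egln2 -0.03 and Arnt 0.07 and Egln1 0.06 and Vhl -0.68 (the interaction of cisplatin with ICB). With DESeq2, the sign turned for Egln2 0.01 (5-FU against PBS), Egln2 0.01 and Hif1an 0.05 (cisplatin+ICB against cisplatin), Egln2 0.04 (5-FU against cisplatin), Egln1 -0.01 (5-FU+ICB against cisplatin+ICB). With DESeq2 size factors, the sign turned for Egln2 0.02 (5-FU against PBS), Arnt 0.01 (cisplatin+ICB against PBS), Egln2 0.03 and Hif1an 0.06 (cisplatin+ICB against cisplatin), Egln2 0.04 (5-FU against cisplatin), Egln1 -0.01 (5-FU+ICB against cisplatin+ICB). Without a filter on low counts, the sign turned for Egln2 0.06 (5-FU against PBS), Arnt 0.01 (cisplatin+ICB against PBS), Egln2 -0.03 (cisplatin+ICB against ICB), Hif1an 0.05 (cisplatin+ICB against cisplatin), Egln2 0.07 (5-FU against cisplatin), Egln2 -0.02 (the interaction of cisplatin with ICB). With at least 10 counts in every tumor, the sign turned for Egln2 0.03 (5-FU against PBS), Arnt 0.08 and Egln2 0.05 (cisplatin+ICB against PBS), Egln2 0.05 and Hif1an 0.10 (cisplatin+ICB against cisplatin), Egln2 0.05 (5-FU against cisplatin), Egln1 -0.02 (5-FU+ICB against cisplatin+ICB). With only the groups compared, the sign turned for Egln2 0.01 (5-FU against PBS), Arnt 0.02 (cisplatin+ICB against PBS), Egln2 0.02 and Hif1an 0.05 (cisplatin+ICB against cisplatin), Egln2 0.02 (5-FU against cisplatin), Egln1 -0.05 (5-FU+ICB against cisplatin+ICB). With the replicate block, the sign turned for Vhl -0.03 (cisplatin+ICB against ICB), Egln2 0.01 (5-FU against cisplatin).

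When 1 tumor was left out at a time, the following uncalled log2 fold changes also crossed 0. Vhl ran from -0.09 to 0.39 (ICB against PBS), -0.45 to 0.04 (5-FU+ICB against PBS), -0.34 to 0.17 (cisplatin against PBS), -0.47 to 0.51 (cisplatin+ICB against PBS), -0.55 to 0.32 (cisplatin+ICB against ICB), -0.34 to 0.62 (cisplatin+ICB against cisplatin), -0.67 to 0.23 (5-FU+ICB against cisplatin+ICB), -0.42 to 0.55 (the interaction of cisplatin with ICB). Egln2 ran from -0.08 to 0.03 (5-FU against PBS), -0.03 to 0.09 (5-FU+ICB against PBS), -0.10 to 0.01 (cisplatin against PBS), -0.06 to 0.10 (cisplatin+ICB against ICB), -0.12 to 0.06 (cisplatin+ICB against cisplatin), -0.03 to 0.06 (5-FU against cisplatin), -0.03 to 0.16 (the interaction of cisplatin with ICB). Arnt ran from -0.03 to 0.13 (5-FU+ICB against ICB), -0.04 to 0.13 (cisplatin against PBS), -0.17 to 0.18 (cisplatin+ICB against PBS), -0.20 to 0.08 (cisplatin+ICB against ICB), -0.18 to 0.12 (cisplatin+ICB against cisplatin), -0.26 to 0.03 (the interaction of cisplatin with ICB). Hif1an ran from -0.15 to 0.12 (5-FU+ICB against ICB), -0.04 to 0.27 (cisplatin against PBS), -0.06 to 0.45 (cisplatin+ICB against PBS), -0.10 to 0.28 (cisplatin+ICB against cisplatin). Egln1 ran from -0.20 to 0.03 (cisplatin against PBS), -0.11 to 0.12 (5-FU+ICB against cisplatin+ICB).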
